A study of Mus musculus with 6 samples.

Results

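The peaks examined here were the enriched regions of mouse sperm MNase-seq that lay on chromosomes 1 to 19 between 3 and 5 Mb of mm10, next to the centromeres. They were taken by position alone, as every peak whose midpoint fell in those 2 Mb, and they numbered 2104 of the 83628 peaks in 6 lists. The 3 to 4 Mb stretch held 1258 of them and the 4 to 5 Mb stretch held 846. The stretch was chosen because earlier results from the same lists had shown many peaks there, so the numbers of peaks and their positions are given as a description, without a test.

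Mouse chromosomes carry their centromere at one end, and the assembly begins each autosome with a run of placeholder bases in its place. The centromere itself is built on minor satellite repeats and flanked by large blocks of major satellite, which are packed as constitutive heterochromatin. In sperm most histones are replaced by protamines, and the nucleosomes that remain can be released with micrococcal nuclease (MNase), which cuts the DNA between them. A peak in these data is a stretch where more nucleosome-sized DNA was recovered than the background of the same library.

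K49A sperm, with an alanine in place of a lysine in protamine 1, gave 2 libraries (K49A 1 and K49A 2, titled MT in the sample records), and wild-type (WT) sperm of C57BL6 mice gave 4 libraries (WT 1 to WT 4). All 6 came from the epididymis and vas deferens and shared 1 protocol. Sperm were exposed to DNase I, permeabilised, decondensed in 50 mM DTT and digested with 5 U and then 15 U of MNase, and DNA of mononucleosome size was cut from a gel. The labels and design text do not state the strain background of the K49A animals, their ages or how many animals stood behind a library, and p-values measure only how libraries differ. The lists were called library by library and held 700 and 1017 peaks in K49A 1 and 2, against 11313 to 27903 in WT, and read depth is unknown. The authors' weakest accepted call had a −log10 p of 4.73 and 4.55 in K49A 1 and 2, against 3.32 to 3.75 in WT, so the WT lists reached weaker calls. Identity of the cells could not be checked, since peaks are no measure of marker expression.

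A set of 5 promoter windows within the 2 Mb is shown, all under a peak in the 4 WT libraries and some also under a K49A peak. None represents the 349 of 618 windows that no library touched, or windows called in only some WT libraries. The 5 are RefSeq windows of GRCm38.p6, from 250 bases before to 50 bases after a transcript start, read in the direction of transcription. The lncRNA gene LOC115490388 (chr6:3182866-3183165, plus strand) had a window under a peak in all 6 libraries, and Gm15927 (chr7:3645411-3645710, minus strand) in K49A 1 and all 4 WT libraries; their capitals mark the bases under the peak of K49A 1. Cnot3 (chr7:3645019-3645318, plus strand), which starts beside Gm15927 on the opposite strand, Cabp7 (chr11:4747130-4747429, minus strand) and Ncoa1 (chr12:4477133-4477432, minus strand) had windows under a peak in the 4 WT libraries, and their capitals mark the bases covered in all 4 of these.
LOC115490388: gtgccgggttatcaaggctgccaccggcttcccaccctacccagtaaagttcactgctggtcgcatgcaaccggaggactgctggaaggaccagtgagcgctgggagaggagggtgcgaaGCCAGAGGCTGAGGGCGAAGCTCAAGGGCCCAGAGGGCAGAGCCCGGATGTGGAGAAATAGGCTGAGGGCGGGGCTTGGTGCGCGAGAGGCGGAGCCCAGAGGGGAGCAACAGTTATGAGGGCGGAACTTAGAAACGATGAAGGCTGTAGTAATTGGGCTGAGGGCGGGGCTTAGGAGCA
Gm15927: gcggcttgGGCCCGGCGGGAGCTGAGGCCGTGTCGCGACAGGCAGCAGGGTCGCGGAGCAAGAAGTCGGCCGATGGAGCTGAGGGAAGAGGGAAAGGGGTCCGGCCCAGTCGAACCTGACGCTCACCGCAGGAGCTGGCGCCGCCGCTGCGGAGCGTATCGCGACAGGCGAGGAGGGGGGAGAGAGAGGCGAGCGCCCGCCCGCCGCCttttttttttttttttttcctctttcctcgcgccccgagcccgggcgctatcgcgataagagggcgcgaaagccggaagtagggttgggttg
Cnot3: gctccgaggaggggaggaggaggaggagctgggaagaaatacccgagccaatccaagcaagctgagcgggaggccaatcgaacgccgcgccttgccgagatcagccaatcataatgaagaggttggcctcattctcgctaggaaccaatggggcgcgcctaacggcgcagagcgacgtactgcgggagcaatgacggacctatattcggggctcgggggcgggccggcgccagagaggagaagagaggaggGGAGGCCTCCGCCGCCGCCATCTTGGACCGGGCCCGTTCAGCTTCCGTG
Cabp7: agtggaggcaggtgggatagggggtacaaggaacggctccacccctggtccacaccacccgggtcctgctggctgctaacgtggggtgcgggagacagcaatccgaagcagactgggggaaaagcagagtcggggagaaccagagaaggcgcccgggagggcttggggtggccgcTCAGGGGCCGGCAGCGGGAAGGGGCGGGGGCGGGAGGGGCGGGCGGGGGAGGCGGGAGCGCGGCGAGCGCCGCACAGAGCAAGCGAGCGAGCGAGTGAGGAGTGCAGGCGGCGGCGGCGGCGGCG
Ncoa1: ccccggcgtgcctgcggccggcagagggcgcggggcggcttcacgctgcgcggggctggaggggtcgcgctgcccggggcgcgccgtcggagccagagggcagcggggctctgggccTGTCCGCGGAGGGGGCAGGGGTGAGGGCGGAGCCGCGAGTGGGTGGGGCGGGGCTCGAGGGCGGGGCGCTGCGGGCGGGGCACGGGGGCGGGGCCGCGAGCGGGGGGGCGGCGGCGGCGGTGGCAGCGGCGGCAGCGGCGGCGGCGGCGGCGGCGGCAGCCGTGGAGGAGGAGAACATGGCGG
The LOC115490388 window had 15 CG pairs and the other windows had more, 37 in Gm15927, 28 in Cnot3, 30 in Cabp7 and 49 in Ncoa1. The letters TGAGGGCG, picked after this window was read, stood 4 times in it on the printed strand. On either strand they stood at least once in 1.57% of all 31365 autosomal windows, and 4 or more times in 2 of them. Windows with these letters numbered 12 of the 618 in the 2 Mb, and included the printed Ncoa1 window, called in WT alone.

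Peaks in the first 2 Mb were fewer in K49A but made up a larger part of the K49A lists. There were 74 and 100 such peaks in K49A 1 and 2, against 281, 502, 540 and 607 in WT 1 to 4, a difference of -2.43 on the log2 scale. As a share of the autosomal list they came to 11.1% in K49A 1 (95% exact binomial interval 8.85 to 13.8%) and 10.4% in K49A 2 (8.50 to 12.4%). In WT 1 to 4 the share was 2.50% (2.22 to 2.81%), 2.49% (2.28 to 2.71%), 2.47% (2.27 to 2.68%) and 2.19% (2.02 to 2.37%). These intervals cover counting error only, and neighbouring peaks are not independent. The share of both K49A lists was above that of every WT list, with means of 10.7 ± 0.560% (SD, n = 2) in K49A and 2.41 ± 0.148% (SD, n = 4) in WT.

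The larger share of the K49A lists lay in the first of the 2 megabases. K49A 1 and 2 had 68 and 93 peaks at 3 to 4 Mb, against 169, 285, 304 and 339 in WT 1 to 4. At 4 to 5 Mb they had 6 and 7, against 112, 217, 236 and 268 in WT. The first megabase therefore held 91.9% of the members in K49A 1 (95% exact binomial interval 83.2 to 97%) and 93.0% in K49A 2 (86.1 to 97.1%), against 60.1, 56.8, 56.3 and 55.8% in WT 1 to 4, whose intervals ran from 51.8 to 65.9%. Per megabase, 3 to 4 Mb was 14.3 and 13.4 times as dense in peaks as the rest of the autosomes in K49A 1 and 2, and 1.92, 1.80, 1.77 and 1.56 times as dense in WT 1 to 4. At 4 to 5 Mb the ratio was 1.27 and 1.01 in K49A, against 1.27, 1.37, 1.38 and 1.23 in WT, so the genotypes overlapped there in this ratio. As a share of the autosomal list they did not overlap there, with 0.904 and 0.725% in K49A and 0.968 to 1.08% in WT. The next 2 Mb held 1.66 and 1.14% of the K49A lists and 1.48 to 1.65% of the WT lists. The last 2 Mb of the autosomes, at the other end of the chromosomes, held 3.16 and 2.17% in K49A and 1.93 to 1.97% in WT.

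**Figure D1:**
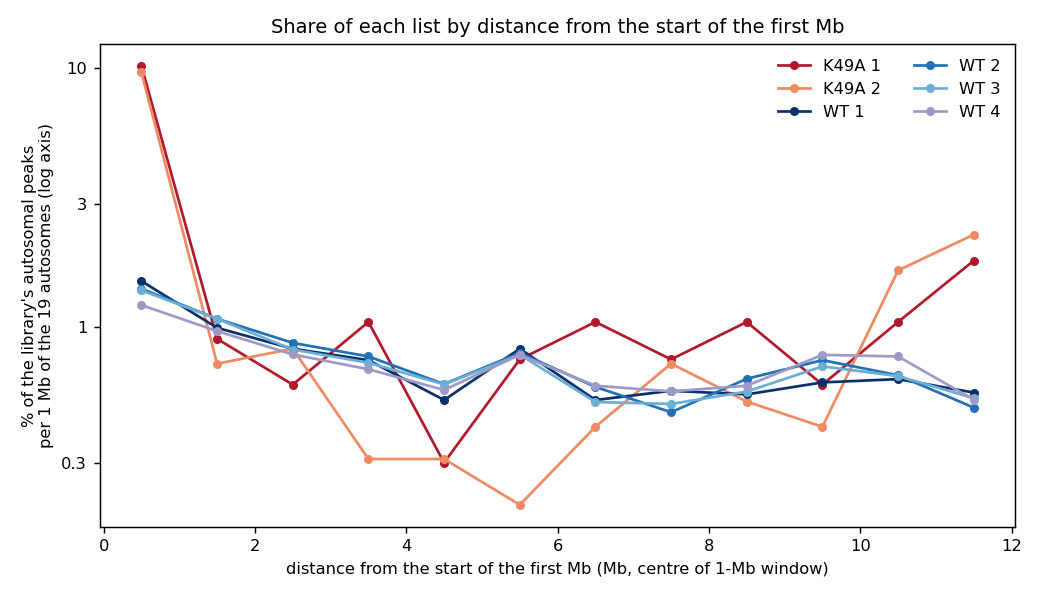
Share of each library's autosomal peaks per 1 Mb (y axis, %, log scale) against distance from the start of the first Mb (x axis, Mb), 1 line per library. The first Mb held 10.2 and 9.63% of the K49A lists and 1.22 to 1.51% of the WT lists, and the second held 0.904 and 0.725% in K49A and 0.968 to 1.08% in WT.

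Within the first megabase the K49A peaks were closest to the centromeric end. The first 200 kb held 54 of the 74 K49A 1 members (73.0%) and 65 of the 100 K49A 2 members (65.0%). The same 200 kb held 74, 87, 101 and 108 members in WT 1 to 4, or 26.3, 17.3, 18.7 and 17.8%. WT peaks were also most frequent there, and continued through the remainder at 6 to 39 peaks per 100 kb summed over the autosomes. At the outer border the last 100 kb before 5 Mb had 2 and 2 peaks in K49A and 16, 22, 19 and 33 in WT 1 to 4, and the first 100 kb after it had 1 and 2 in K49A and 16, 31, 25 and 30 in WT. On 5 chromosomes (7, 10, 11, 15 and 19) no library had a peak in the first 100 kb, so the distance to the first peak was not the same for every chromosome.

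**Figure D2:**
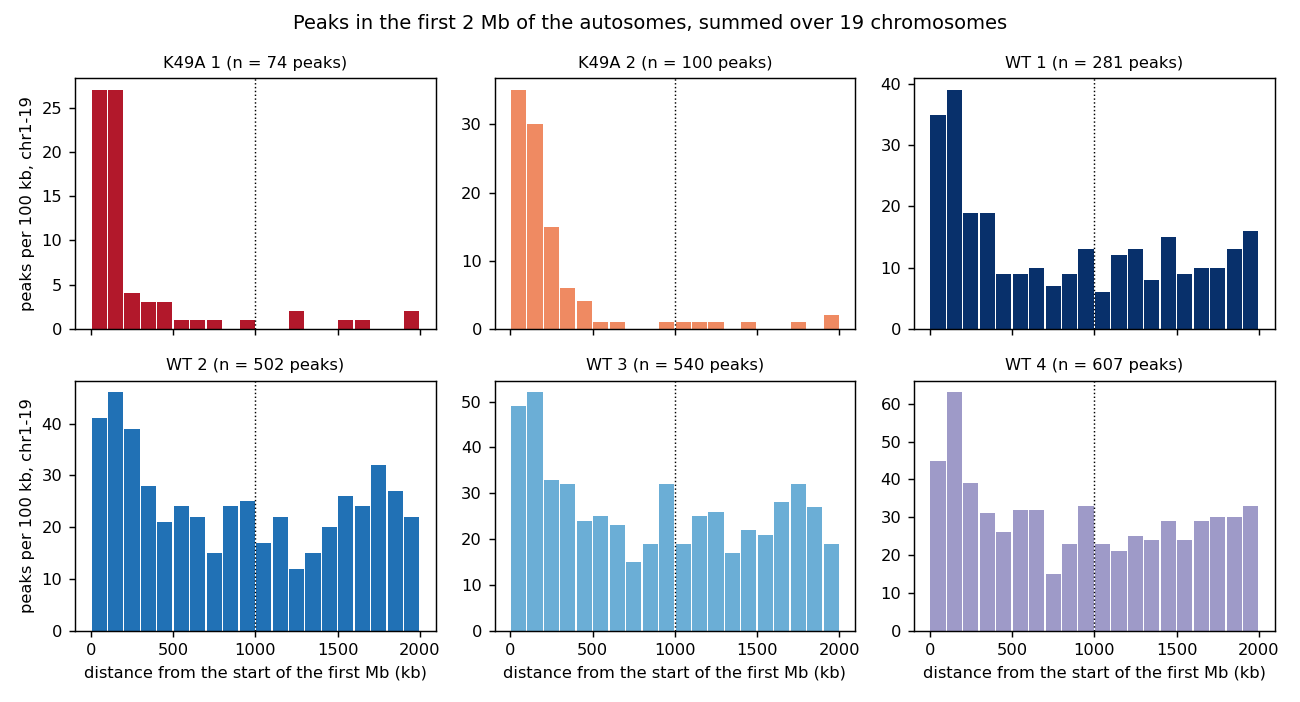
Number of peaks per 100 kb summed over chromosomes 1 to 19 (y axis) against distance from the start of the first Mb (x axis, kb), 1 panel per library with its own y scale, the dotted line marking 1000 kb. The first 2 bars hold 54 and 65 peaks in K49A 1 and 2 and 74 to 108 in the WT libraries, where the later bars stay filled.

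Most chromosomes had more peaks in the first stretch than in the next, in both genotypes. More peaks at 3 to 4 Mb than at 4 to 5 Mb were found on 14 and 12 chromosomes in K49A 1 and 2, and on 12, 11, 11 and 12 in WT 1 to 4. Both K49A libraries had more at 3 to 4 Mb on chromosomes 3, 4, 5, 9, 10, 11, 13, 15, 16 and 17, and no chromosome had the reverse in both. All 4 WT libraries had more at 3 to 4 Mb on chromosomes 2, 3, 4, 5, 9, 11, 13, 17 and 18, and more at 4 to 5 Mb on chromosomes 1, 12 and 14. Chromosomes 1, 12 and 14 held 24 protein-coding genes at 3 to 4 Mb and 40 at 4 to 5 Mb, each of the 3 having more in the second stretch. The 9 chromosomes with the opposite order in WT held 79 and 60, with 5 of the 9 having more genes at 3 to 4 Mb. Whether gene number has a part in the WT order was not tested.

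**Figure D3:**
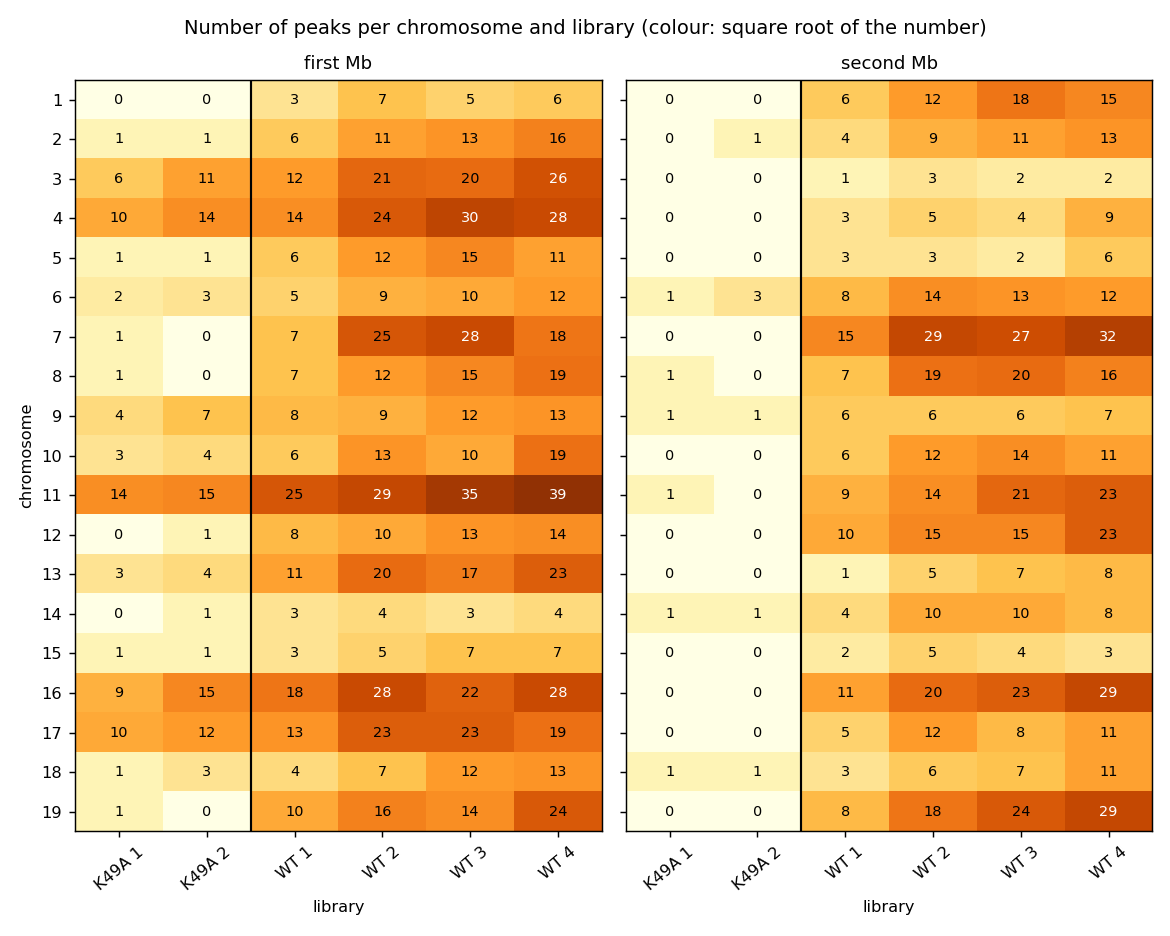
Number of peaks per chromosome (rows) and library (columns, the black line parting K49A from WT) in the first Mb (left) and the second Mb (right), with darker colour for more peaks. Chromosome 1 has no K49A peak in either panel, and chromosomes 3, 4, 11, 16 and 17 have 6 to 15 in each K49A library in the first Mb.

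A group of 5 chromosomes (3, 4, 11, 16 and 17) carried most of the K49A peaks at 3 to 4 Mb, 49 of 68 in K49A 1 (72.1%) and 67 of 93 in K49A 2 (72.0%). They carried 48.5, 43.9, 42.8 and 41.3% of the WT 1 to 4 peaks at 3 to 4 Mb. These chromosomes were picked after their counts were seen. Without them the share of the list in the first 2 Mb was 5.20% in K49A and 2.11% in WT (means of 2 and 4 libraries). Over all libraries together, a sum that the longer WT lists dominate, chromosomes 11, 16 and 7 had the most members, with 225, 203 and 182, and chromosomes 15, 14 and 5 the fewest, with 38, 49 and 60. In the 2 K49A libraries together chromosomes 11, 4, 16 and 17 had the most, with 30, 24, 24 and 22, chromosomes 7, 12 and 19 had 1 each and chromosome 1 had 0. Chromosome 7 had 1 and 0 members in K49A 1 and 2, against 22, 54, 55 and 50 in WT 1 to 4. The mean autosomal list was 24.8 times as long in WT as in K49A. These raw counts therefore do not show a difference particular to chromosome 7.

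All 19 autosomes had a WT peak in both stretches in all 4 libraries, where 85.3% of all 2394 autosomal 1-Mb windows did. A peak in both K49A libraries was found in 13 of the 19 windows at 3 to 4 Mb and in 4 of the 19 at 4 to 5 Mb, and in 8.77% of all autosomal windows. The first megabase of chromosome 11 was the fifth among all autosomal windows by K49A peaks, level with a window near the far end of chromosome 4, with 14 and 15 in K49A 1 and 2 and 25, 29, 35 and 39 in WT 1 to 4.

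On chromosome 11 nearly all K49A peaks lay in a single stretch of 100 kb, where WT had a like number. The whole 2 Mb of that chromosome held 15 and 15 peaks in K49A 1 and 2, against 34, 43, 56 and 62 in WT 1 to 4. Between 100 and 200 kb from the start of the first megabase there were 14 and 15 peaks in K49A 1 and 2 and 14, 13, 15 and 16 in WT 1 to 4, so the genotypes overlapped in number. They covered 8.25 and 9.85 kb in K49A, and 9.35, 9.62, 11.9 and 11.6 kb in WT. This stretch was singled out by its K49A peaks, which favours a like number in the genotypes. The stretch holds Pisd-ps1, a transcribed pseudogene of phosphatidylserine decarboxylase, and most of Sfi1, which encodes a centrin-binding protein of the centrosome. The shared region with the highest mean percentile of −log10 q within the 6 lists lay here, outside any gene, at chr11:3103816-3104184. Its fold over background was 8.12 and 7.65 in K49A 1 and 2, and 7.62, 7.68, 7.93 and 7.98 in WT 1 to 4. Fold, −log10 p and −log10 q are the authors' values for each peak, on a background of its own library, and only describe or rank peaks within a list.

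**Figure D4:**
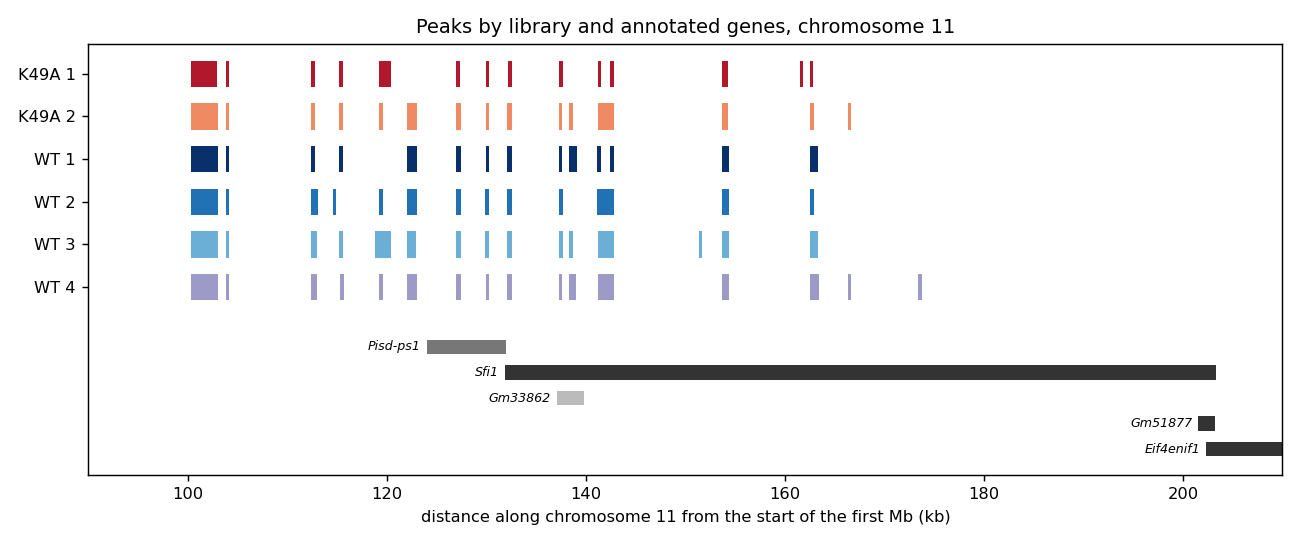
Peaks of each library (upper 6 rows) and annotated genes (grey bars, dark for protein-coding, lighter for pseudogene and lncRNA) along chromosome 11, by distance from the start of the first Mb (x axis, kb). The 14 and 15 K49A peaks and the 13 to 16 WT peaks between 100 and 200 kb stand largely above each other.

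Other 100 kb stretches with 3 or more peaks in both K49A libraries were the first 100 kb of chromosomes 3, 4, 9 and 17 and the second 100 kb of chromosomes 10 and 16. The first 100 kb of chromosome 17 had 9 and 12 peaks in K49A 1 and 2, against 10, 13, 15 and 12 in WT 1 to 4. That of chromosome 4 had 7 and 9 in K49A, against 9, 10, 11 and 8 in WT. Counts of the genotypes overlapped in both stretches, unlike the counts over the whole 2 Mb. The stretches were picked by their K49A counts, which favours such overlap, so no conclusion is drawn from the contrast.

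The 6 lists merged into 971 regions in the first 2 Mb, 544 at 3 to 4 Mb and 427 at 4 to 5 Mb. A peak of all 6 libraries was found in 46 regions (4.74%, against 0.532% of all 44181 autosomal regions), and 44 of these were at 3 to 4 Mb. They were 19.6% of the 235 autosomal regions shared by all 6. Regions called in any K49A library numbered 114, with 104 at 3 to 4 Mb, where the share over all autosomal regions was 2.85%. Regions of all 4 WT and neither K49A library numbered 129, or 13.3%, next to 13.9% over the autosomes, with 60 at 3 to 4 Mb and 69 at 4 to 5 Mb. No region was called in both K49A and no WT library (0.0475% over the autosomes), and 15 (1.54%, next to 1.06% over the autosomes) were called in 1 K49A library only. Without WT 1, the shortest WT list, the regions of every remaining WT and neither K49A library numbered 202.

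Most shared regions lay away from genes. Of the 46, 36 lay outside any annotated gene, 4 in a pseudogene or lncRNA and 6 in a protein-coding gene. The same split over other autosomal regions is not given here, so it cannot be read as particular to the 46. Chromosome 11 had 10 of them, chromosome 4 had 9, chromosome 16 had 7 and chromosome 17 had 6. At chr2:3964389-3964721, outside any gene, the peak had identical borders in the 6 lists, with a fold of 14.1 and 15.7 in K49A 1 and 2 and 15.0, 14.0, 16 and 13.4 in WT 1 to 4. At chr9:4260280-4260895, 1 of the 2 shared regions beyond 4 Mb, the fold was 12.1 and 13 in K49A and 21.7, 15.2, 16.7 and 22.4 in WT. The other lay in Gm10410, a predicted protein-coding gene, at chr14:4968920-4969366, with a fold of 3.89 and 5.50 in K49A and 3.55, 4.09, 5.09 and 4.42 in WT. In Pisd-ps2, another pseudogene of that decarboxylase, the region chr17:3081534-3082528 had a fold of 9.21 and 8.51 in K49A and 9.35, 7.81, 7.76 and 6.05 in WT.

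A group of 3 shared regions on chromosome 9 joined low folds to strong p-values. At chr9:3020387-3020689 the fold was 1.82 and 1.83 in K49A 1 and 2 and 1.86, 1.78, 1.77 and 1.65 in WT 1 to 4, among the 3 lowest folds of each list. The −log10 p at the same place was 31.7 and 43.9 in K49A and 46.1, 41.7, 41.0 and 46.4 in WT. The neighbours at chr9:3011636-3011963 and chr9:3029408-3029960 had folds of 2.02 and 2.28 in K49A 1, 2.11 and 2.24 in K49A 2, and between 1.86 and 2.37 in WT. At a given fold, a Poisson p is stronger where the background is higher, and the fold and p of a peak together give that background approximately. Its median at 3 to 4 Mb was 1.57 and 1.85 times that of the rest of the autosomes in K49A 1 and 2, against 1.12, 1.10, 1.09 and 1.03 in WT 1 to 4, while at 4 to 5 Mb it was 0.975 and 0.989 in K49A and 0.981 to 0.991 in WT. At 3 to 4 Mb these medians were over 41 and 49 peaks in K49A 1 and 2 and 77, 107, 114 and 178 in WT 1 to 4. The peaks differed between libraries, so the ratios do not compare the background of the genotypes at the same places. The part of a raised background in the calls was not tested. Some peak numbers were absent from each list. The names of the lists say that blacklisted regions were removed, and whether that removal left these gaps was not tested. Of the 82 and 87 numbers absent from K49A 1 and 2, 16 and 13 lay between members of the 2 Mb, and the place of 14 and 23 more was not certain. In WT 1 to 4 it was 20 of 88, 20 of 86, 22 of 83 and 20 of 84, with 8, 7, 6 and 5 more not certain. Of the absent numbers placed within the 2 Mb, all but 2 or 3 in each list were on chromosomes 9 and 11.

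WT members overlapped a K49A peak more often at 3 to 4 Mb than at 4 to 5 Mb, in each of the 4 libraries. There were 68 and 93 K49A 1 and 2 peaks to overlap at 3 to 4 Mb, and 6 and 7 at 4 to 5 Mb. The WT shares depend on these numbers, so they are a description and no conclusion is drawn from their order. At 3 to 4 Mb 92.6 and 93.5% of the K49A 1 and 2 peaks overlapped a peak of some WT library, against 76.3 and 61.0% in the rest of the autosomes. At 4 to 5 Mb it was 5 of the 6 K49A 1 peaks and 4 of the 7 K49A 2 peaks. Of the WT 1 to 4 peaks at 3 to 4 Mb 40.8, 26, 25.3 and 24.2% overlapped a K49A peak, where 3.81, 2.70, 2.53 and 1.84% did in the rest of the autosomes. At 4 to 5 Mb the WT shares were 3.57, 1.38, 2.12 and 1.49%. Mean overlap of a library's members with the other 5 lists was 81.1 and 70.2% in K49A, and 56.4, 40, 38.3 and 31.7% in WT. With lists of 700 peaks each the means were 56.5% in K49A and 71.5% in WT.

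The difference between the genotypes depended on the strength of the call. With the minimum −log10 p set at 10 the first 2 Mb held 39 and 48 peaks in K49A 1 and 2, and 52, 48, 51 and 58 in WT 1 to 4. The share of the list at that level was 21.3 and 20.2% in K49A, and 7.76, 15.9, 14.4 and 6.95% in WT. At 20 or more there were 16 and 22 peaks in K49A, and 19, 22, 28 and 28 in WT. The share was then 18.6 and 20.0% in K49A and 17.4, 18.5, 22.6 and 20.7% in WT, and the genotypes overlapped. With every list cut to its 700 strongest peaks the first 2 Mb held 82 peaks in K49A and 58.8 in WT (means of 2 and 4 libraries), the reverse of the order in the full lists. Of the members with a −log10 p of 20 or more, most were at 3 to 4 Mb, 15 and 21 in K49A and 18, 21, 27 and 26 in WT, with 1 or 2 in each list at 4 to 5 Mb.

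**Figure D5:**
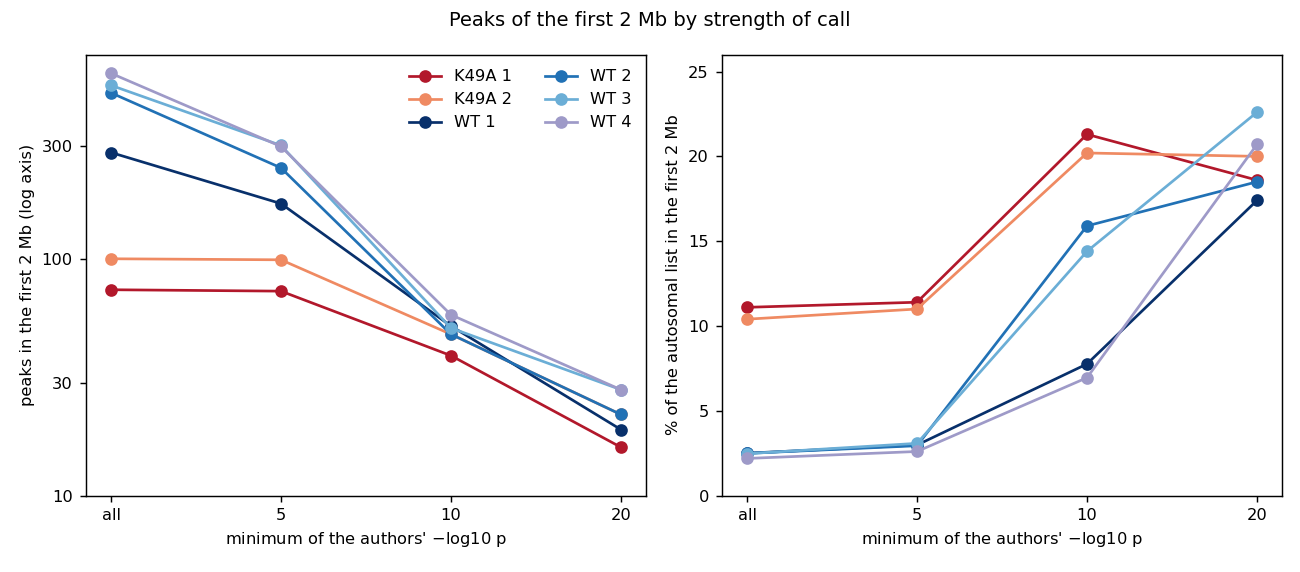
Number of peaks in the first 2 Mb (left, log axis) and their share of the autosomal list in % (right) against the minimum −log10 p, 1 line per library. The shares of K49A and WT are apart when all peaks are taken (11.1 and 10.4% against 2.19 to 2.50%) and overlap at 20 (18.6 and 20.0% against 17.4 to 22.6%).

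A total of 3 features that the choice of the stretch did not use were tested between the genotypes. Members were 330.0 and 328 bp wide at the median in K49A 1 and 2, and 434, 568, 548 and 369 bp in WT 1 to 4, a difference of -150.5 bp (exact permutation test, two-sided p = 0.133). The median percentile of a member's −log10 q within its own list was 72.1 and 71.0 in K49A, and 62.2, 58.0, 60.9 and 57.4 in WT (difference 11.9, exact permutation test, two-sided p = 0.133). The share of members within 1 kb of either end of a protein-coding gene was 4.05 and 1.00% in K49A, and 42.0, 39.8, 39.4 and 34.9% in WT (difference -36.5 percentage points, exact permutation test, two-sided p = 0.133). The genotypes did not overlap in any of the 3, and 0.133 is the smallest p that 2 libraries against 4 can give, so none could reach 0.05. Outside the 2 Mb the median width of autosomal peaks was 296 and 290 bp in K49A 1 and 2. In WT 1 to 4 it was 404, 559, 546 and 367 bp. The gene-end share there was 13.7 and 8.31% in K49A, and 51.5, 42.7, 42.9 and 36.8% in WT. The differences in width and gene-end share were thus not particular to the members. The difference in percentile turned to -19.8 when every list was limited to a −log10 p of at least 10, and to -6.29 with lists of 700 peaks. The difference in gene-end share shrank to -6.96 points at that −log10 p, where the genotypes overlapped (exact permutation test, two-sided p = 0.400), and to -11.7 points with lists of 700 peaks, and that in width to -98.4 bp at that −log10 p.

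Members were then set against the remaining autosomal peaks of the same list. The median percentile of members was higher in 6 of 6 libraries, by 27.6 and 25.1 points in K49A 1 and 2 and by 12.5, 8.23, 11.2 and 7.60 in WT 1 to 4 (exact sign-flip permutation test over libraries, two-sided p = 0.0312, the smallest possible). The share at gene ends was lower in 6 of 6, with a mean difference of -5.76 percentage points (exact sign-flip permutation test, two-sided p = 0.0312), and of -13.1 points with the minimum −log10 p set at 5. In K49A it was 4.05 and 1.00% in members and 13.7 and 8.31% in the rest. In WT 1 it was 42.0% in members and 51.5% in the rest, and in WT 2 to 4 the difference was between -3.41 and -1.85 points. Median width was greater in 6 of 6, by 0.16 and 0.18 on the log2 scale in K49A and by 0.01 to 0.10 in WT (exact sign-flip permutation test, two-sided p = 0.0312). The mean difference in log2 width over the 6 libraries was 0.08. Leaving out chromosome 11 gave 0.07, with members wider in 5 of the 6 (p = 0.0625 by the same exact test). The mean difference fell to 0.01 when the minimum −log10 p was set to 5 (p = 0.875 by the same exact test). With that minimum members were wider in 2 of the 6 libraries, and the WT mean was below that of the rest. The 3 p-values are not adjusted for the number of features.

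Peaks at gene ends and other peaks had opposite distributions over the 2 stretches in WT. At gene ends WT 1 to 4 had 54, 92, 92 and 90 peaks at 3 to 4 Mb and 64, 108, 121 and 122 at 4 to 5 Mb. Away from gene ends they had 115, 193, 212 and 249 at 3 to 4 Mb and 48, 109, 115 and 146 at 4 to 5 Mb. K49A 1 and 2 had 3 and 1 peaks at gene ends, all at 3 to 4 Mb, and 65 and 92 away from them at 3 to 4 Mb with 6 and 7 at 4 to 5 Mb. The WT surplus at 3 to 4 Mb was thus in peaks away from gene ends in each of the 4 libraries. Protein-coding genes with an end at 3 to 4 Mb numbered 197, and those with an end only at 4 to 5 Mb numbered 238. Whether gene number has a part in the order at gene ends was not tested.

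The 2 Mb held an end of 435 protein-coding genes, and a peak at either end was counted, also for the 11 genes whose other end lay outside. In all 4 WT and neither K49A library, 104 of them (23.9%) had a peak at an end, next to 23.1% of 20560 autosomal genes, with 47 of 197 at 3 to 4 Mb and 57 of 238 beyond. A peak in all 4 WT libraries, with or without K49A, was at an end of 107 genes, or 24.6%, next to 23.5%. No library had one at 151 genes, or 34.7%, next to 37.5%. A peak in any K49A library was at an end of 3 genes, or 0.690%, next to 0.657%, and in all 6 libraries at 1 gene, or 0.230%, next to 0.107%. These shares in the first 2 Mb were near those over all autosomes. Without WT 1 the genes of every remaining WT and neither K49A library numbered 163, without K49A 1 the genes of the remaining K49A library numbered 1, and with 2 kb at each gene end in place of 1 kb those of any K49A library numbered 7.

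The 3 genes with a K49A peak at an end were Sfi1, Tiam2 and Cnot3. Sfi1 (chr11:3131850-3203347) had a peak at its lower end in the 6 libraries, with a fold of 5.25 and 5.61 in K49A 1 and 2 and 4.81, 5.45, 5.52 and 4.92 in WT 1 to 4. Tiam2 (chr17:3326313-3519397), an exchange factor for Rac GTPases, had one at its start in K49A 1 with a fold of 3.19, and in WT 1 to 4 with 3.53, 3.22, 3.49 and 3.26. Cnot3 (chr7:3645247-3661109), a subunit of the CCR4-NOT deadenylase, had one near its start in K49A 1 with a fold of 3.56, and in WT with 3.12, 3.00, 3.06 and 3.05. That K49A 1 peak lay at chr7:3645503-3645702, over the window of the neighbouring Gm15927 printed above.

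The 15 genes of highest mean percentile among those with a peak in the WT libraries alone had mean folds of 3.03 to 4. Bend7, which encodes a BEN-domain protein, came first with 3.92, 3.56, 3.46 and 4.63 in WT 1 to 4 at its lower end (chr2:4717787-4802224). Cabp7, a calcium-binding protein, had 4.35, 3.35, 3.58 and 3.02 at its start. Ncoa1, a nuclear receptor coactivator, had 5.31, 3.00, 3.90 and 3.80 at its start, the widest spread of the 15. Genes of chromatin and signalling among them were Arid1b, a subunit of the BAF chromatin remodeller, Cdk14, a cyclin-dependent kinase, and Ppp6r3, a regulatory subunit of a protein phosphatase. Rab10, Gdi2 and Kif3c serve vesicle and microtubule transport. Rps20 is a protein of the small ribosomal subunit, Mtmr3 a phosphoinositide phosphatase, Casd1 an acetyltransferase of sialic acids, Drg1 a GTP-binding protein, and Xkr4 and Ttyh1 membrane proteins. The peak was at the gene's start in all 4 WT libraries for 10 of the 15, and for 5 (Bend7, Xkr4, Drg1, Mtmr3 and Rps20) the strand was not known here. Of the 15, 8 had an end at 4 to 5 Mb. The Cdk14 peak lay at the start of the gene, beyond 5 Mb, so it is not itself among the members.

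Among regions of the WT libraries alone, the one with the highest mean percentile was not at a gene end. It was chr8:3754299-3754622, 5315 bp from Cd209a, a C-type lectin gene, with a fold of 9.72, 4.92, 8.12 and 14.1 in WT 1 to 4. The next was chr2:4717188-4718801, at Bend7, followed by chr11:4745961-4747564, at Cabp7.

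Promoters under a WT peak were rich in CG pairs. The 2 Mb held 618 distinct promoter windows, and 60 of them, or 9.71%, were overlapped by a peak in all 4 WT libraries, next to 8.78% of 31365 on the autosomes. Those 60 had a median of 27 CG pairs in 300 bases, against 3 in the 349 windows that no library touched. Over all autosomes the medians were 31 and 4. A K49A peak touched 3 of the 618 windows, or 0.485%, next to 0.134% on the autosomes (42 windows), and all 3 lay at 3 to 4 Mb. Their median was 35 CG pairs, and that of the 42 was 11.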

How the data were processed

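MNase-seq peaks of mouse sperm were taken from 6 broad-peak lists, each called on its own library. The submitters' processing notes name BWA, SAMtools, Picard, FastQC and MACS2 and the build mm10. They name no version or setting, and input controls, reads with several matches and the use of molecular identifiers are not described. The deposited lists give for every peak a fold enrichment (a linear ratio), a −log10 p, a −log10 q and a whole-number score. The lists end at a q of 0.1, and blacklisted regions were removed, per the names of the deposited lists. No counts were used, so depth is unknown.

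A peak was a member if its midpoint lay above 3 Mb and up to 5 Mb on chromosomes 1 to 19. Percentiles rank −log10 q within a list. A gene end was a window of 1 kb around either annotated end of a protein-coding gene in a RefSeq table of GRCm38.p6 (the same assembly as mm10, 20560 autosomal genes; 328 records that end before the first assembled base were left out). A peak overlapped a gene end, a window or another peak if they shared at least 1 bp, and lists were merged into regions over all 6 libraries. Strand was known where a promoter entry exists. Background pileup, from the fold and a Poisson tail, used peaks up to 400 bp wide whose −log10 p was below 100. Sequence was read in RefSeq promoter windows only. Repeats, satellites and the sequence of other peaks were not analysed here.

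Libraries were grouped by their titles. K49A was set against WT by exact permutation of the library labels (15 splits, two-sided), and members with the other autosomal peaks of the same list with an exact sign-flip test over 64 sign patterns. The assignment of peaks to the 2 stretches was tested on simulated data. The background estimate was tested on simulated folds and −log10 p, each made from a single pileup value and a known background. Its accuracy for whole called regions was not tested. The permutation and sign-flip code was checked on small made-up values with a known p. The overlap code was not tested in this way. Genes named were those with a K49A peak at an end and the 15 of highest mean percentile in WT alone, with regions by a like rule. The members, lists and rules were chosen with earlier results of these data known. Alternatives were other −log10 p and q minimums, lists cut to equal length, other overlap and distance rules, chromosomes or libraries left out, and differences within replicate numbers. Analyses ran in Python 3.11 with numpy 2.4.6, pandas 2.3.3, scipy 1.17.1 and matplotlib 3.10.9.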

Additional observations from a re-analysis of the deposited data

Results flagged for a closer look

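The per-library values and the folds at named genes and shared regions were examined for a single WT library standing far from the other WT libraries, 89 sets of 4 values in all, and 7 were found. Chance flags about 1 in 20 such sets. The share of the autosomal list in the first 2 Mb was 2.19% in WT 4, the longest list, against 2.47 to 2.50% in the other WT libraries. The share of members in the first 200 kb was 26.3% in WT 1, the shortest WT list, against 17.3 to 18.7%. The fold at the start of Arid1b, a subunit gene of the BAF chromatin remodeller, was 3.94 in WT 1 and 2.93 to 2.97 in the others, and the merged region there (chr17:4993986-4997225) is the same peak. Among regions shared by all 6 libraries, the fold at chr4:3067224-3068180 was 3.22 in WT 2 against 2.80 to 2.87, at chr4:3080513-3084461 it was 2.53 in WT 1 against 2.08 to 2.14, and at chr3:3137276-3138312 it was 3.99 in WT 3 against 2.99 to 3.16. None of the other 82 sets stood apart.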

How the results depend on the processing

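Differences are K49A minus WT, and the cause of each change was not tested. The direction of the differences in number, list share, share at 3 to 4 Mb, covered length, width and gene-end share held with the minimum −log10 p set at 5 and at 10, with the minimum −log10 q set at 2, with any overlap and without chromosome 11. The log2 difference in number was -1.54 at a −log10 p of 5, -0.27 at 10, -0.35 at 20 and -3.39 without chromosomes 3, 4, 11, 16 and 17, and turned to 0.48 with every list cut to 700 peaks. For covered length it was -1.87 at 5, -0.50 at 10 and 0.13 at equal length. The difference in list share was 9.48 points at 10, 11.5 at a −log10 q of 2, 3.64 at equal length, 7.04 without chromosome 11, 3.09 without the 5 chromosomes and -0.508 at 20. That in the share at 3 to 4 Mb was 28.3 at 5, 6.48 at 10, 31.2 at a −log10 q of 2, 9.72 at equal length, 28.8 without the 5 chromosomes, -0.267 at 20, and 51.6 with the border set 0.5 Mb in. The difference in chromosomes with more peaks at 3 to 4 Mb was 0.500 at 5, -0.750 at 10, -0.500 at a −log10 q of 2 and 3.25 at equal length. The percentile difference was -19.8 at 10 and -6.29 at equal length. Mean overlap with the other lists differed by 9.68 at 10 and by -15.1 at equal length. Members exceeded the rest in log2 width by 0.07 without chromosome 11 and by 0.01 at 5. The 0.01 joins opposite directions, with means of 0.203 in K49A and -0.0851 in WT. Regions of WT alone numbered 28 with 0.5 of the region covered and 30 at 5, where 2 regions of K49A alone appeared, and genes with a K49A peak numbered 7 with ends of 2 kb.

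With each library left out in turn, differences ran from -2.67 to -2.21 for number, 7.94 to 8.73 for list share, 34.6 to 36.1 for the share at 3 to 4 Mb, -2.89 to -2.38 for covered length, 0.500 to 2.50 chromosomes, -187 to -121 bp for width, 11.2 to 12.8 for percentile, -38.1 to -35.0 for gene-end share and 24.6 to 40.9 for overlap. Regions of all libraries ranged from 46 to 55, of WT alone from 133 to 202 and of K49A alone from 0 to 9, genes of WT alone from 104 to 163 and of any K49A library from 1 to 3. Titles share the numbers 1 and 2, but file names liken K49A 2 to WT 4, and deviations per 1-Mb window of same-numbered libraries had correlations of -0.06 and -0.02 over 2394 windows. With the replicate block on title numbers the differences were -2.13, 8.25, 34, -2.32, 1.5, -172, 11.4, -38.4 and 27.5 in the same order, with no change of direction. Short K49A lists limit precision, with 6 and 7 peaks at 4 to 5 Mb. Alternatives at 20 and without the 5 chromosomes were chosen after seeing the data.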
